A study of Mus musculus with 37 samples.

Results

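Trp53, the mouse gene for the stress-responsive transcription factor p53, was followed together with 9 genes of its feedback loop and its direct targets through oocytes, early embryos and post-implantation lineages that had lost maternal BAP1. The 10 genes were taken by symbol from the deposited tables, which list 55401 genes each. All 10 were found: Trp53, Mdm2, Mdm4, Cdkn1a, Ccng1, Btg2, Trp53inp1, Bax, Bbc3 and Phlda3.

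BAP1 is the ubiquitin hydrolase that removes the Polycomb mark from histone H2A. Every female, control or knockout, was Bap1flox/flox, and the knockout females also carried Gdf9-iCre, in which the promoter of the oocyte gene Gdf9 drives recombination. Fully grown oocytes (FGO) and MII eggs (MII) came from these females, and embryos from their crosses to B6 males (cleavage stages) or PWK males (day 6.5), so that a knockout embryo lacked maternal Bap1 and received a paternal allele for which the labels name no deletion. Embryo culture in KSOM is stated in the same words for all samples. Total RNA was sequenced from FGO, MII, late 1-cell (L1C) and late 2-cell (L2C) samples, with 2 control and 3 knockout libraries at each, and from early 2-cell embryos (E2C), with 3 and 3. Poly(A) RNA was sequenced at embryonic day 6.5 from epiblast (EPI) and visceral endoderm (VE), with 2 libraries per genotype, and from extraembryonic ectoderm (EXE), with 1 control and 2 knockout libraries. The labels do not say whether libraries of a group came from separate animals or pools, so p-values measure only the spread between these libraries, which may be technical.

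In most somatic tissues p53 is held low by its target Mdm2, a ubiquitin ligase, and by the related Mdm4, which binds and blocks its activation domain. When p53 is released by DNA damage or other stress it raises genes of cell cycle arrest, such as Cdkn1a (the inhibitor p21), Ccng1 (cyclin G1) and Btg2 (an antiproliferative partner of the mRNA deadenylase), and genes of apoptosis, such as Bax and Bbc3 (PUMA). Growing oocytes store transcripts, and the embryo begins its main round of transcription at the 2-cell stage in mice, so a transcript level before that stage is mostly a maternal store.

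Values are deposited FPKM (fragments counted on a gene, divided by its length and by the size of the library) and so can be compared between genes within a table but not between the total RNA and poly(A) tables, which were normalised separately. FPKM summed to between 300668 and 430784 per total RNA library and to between 593705 and 704522 per poly(A) library, and the number of reads behind a value is unknown. Bap1 checked the labels: it measured 3.76 to 11.7 FPKM in the 15 knockout libraries of the early stages and 16.3 to 29.9 FPKM in the 11 controls, with no overlap at any stage, while at day 6.5, where the paternal allele is present, its 14.0 to 33.8 FPKM checked nothing. The 10 oocyte markers each reached 1 FPKM in at least 1 library of every FGO and MII group. Of 12 granulosa and cumulus markers, 3 reached 1 FPKM in a control FGO library, and their summed level of 25.3 to 27.0 FPKM in control and 15.8 to 17.2 FPKM in knockout FGO was mostly Nr5a2, up to 17.8 FPKM, a gene that early embryos also express. Lineage markers separated EPI, VE and EXE, except that EXE libraries also held epiblast markers at 498 to 605 FPKM, largely Utf1, and VE libraries at 142 to 239 FPKM. In RNA of whole samples, fewer cells of a type and less RNA per cell cannot be told apart.

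The promoters of 9 of the 10 genes were in the RefSeq table (GRCm38.p6, the assembly also called mm10). The 250 bases before the transcription start were searched on both strands for the p53 consensus decamer without mismatch and for a pair of adjacent decamers (20 bases) with at most 3 mismatches. The fixed C and G in the middle of each decamer had to match, so mismatches were allowed only at the other bases. Those of 5 genes are shown because they belong to genes whose levels the results turn on and because they differ in what was found. On that assembly Cdkn1a lies at chr17:29090976-29100727 (+), Ccng1 at chr11:40748552-40755311 (-), Trp53 at chr11:69580359-69591873 (+), Bbc3 at chr7:16308393-16318205 (+) and Btg2 at chr1:134075170-134079120 (-), all protein-coding genes (GENCODE M21). Each window is written 5′ to 3′ on the strand of its gene, without stretches annotated as exon, with matches in capitals.

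Cdkn1a, chr17:29090729-29090975, + strand: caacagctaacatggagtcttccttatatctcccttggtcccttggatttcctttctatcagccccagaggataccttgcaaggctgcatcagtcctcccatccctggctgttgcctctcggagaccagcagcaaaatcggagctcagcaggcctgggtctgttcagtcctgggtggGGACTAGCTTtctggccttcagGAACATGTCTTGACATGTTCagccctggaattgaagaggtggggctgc
Ccng1, chr11:40755312-40755536, - strand: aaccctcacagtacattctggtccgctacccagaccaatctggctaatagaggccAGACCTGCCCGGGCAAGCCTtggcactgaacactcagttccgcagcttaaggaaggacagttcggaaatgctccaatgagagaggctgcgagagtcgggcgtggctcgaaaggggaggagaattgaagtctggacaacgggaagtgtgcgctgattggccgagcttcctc
Trp53, chr11:69580256-69580358, + strand: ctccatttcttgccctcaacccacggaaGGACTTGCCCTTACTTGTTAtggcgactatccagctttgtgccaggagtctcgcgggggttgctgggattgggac
Bbc3, chr7:16309333-16309582, + strand: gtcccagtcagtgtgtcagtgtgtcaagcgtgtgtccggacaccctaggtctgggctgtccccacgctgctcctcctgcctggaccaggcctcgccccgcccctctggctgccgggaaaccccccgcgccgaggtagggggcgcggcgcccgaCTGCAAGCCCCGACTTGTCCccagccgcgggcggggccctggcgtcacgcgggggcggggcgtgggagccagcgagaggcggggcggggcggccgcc
Btg2, chr1:134079156-134079405, - strand: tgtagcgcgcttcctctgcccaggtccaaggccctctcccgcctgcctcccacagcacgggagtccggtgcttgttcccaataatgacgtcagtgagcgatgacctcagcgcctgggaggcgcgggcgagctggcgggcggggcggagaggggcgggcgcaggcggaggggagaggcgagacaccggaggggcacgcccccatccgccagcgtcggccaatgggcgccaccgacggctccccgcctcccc

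Cdkn1a and Ccng1 each held a full element with 1 mismatch, at 51 and 195 bases before the start (first base), a closeness found in 0.05784% of all 32851 windows. The elements of Trp53 and of the first Bbc3 start had 3 mismatches, and 1.138% of all windows held an element with at most 3. Bax and Mdm2 held a single decamer each, and 7.126% of all windows held at least 1. No match lay in the windows of Btg2, Phlda3 or Mdm4, which says only that these letters are not in these stretches. A match is a description of sequence and not a measured binding site.

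In oocytes and early embryos the transcripts of the restraining genes were far more abundant than that of p53 itself. Over the 26 total RNA libraries Mdm4 ranged from 339 to 713 FPKM and Mdm2 from 43.1 to 83.8 FPKM, whereas Trp53 ranged from 2.75 to 12.9 FPKM. In control FGO the ratio of Mdm4 to Trp53 within a library was 45.05 and 49.8, and that of Mdm2 to Trp53 was 6.48 and 7.25. Part of the Mdm4 value is uncertain, since 7.31% of its exonic words of 50 bases also occur elsewhere, nearly all in the pseudogene Mdm4-ps, and 3.64% of those of Trp53 occur in Trp53-ps. Bax shares 8.51% with the overlapping model Gm45808. Among the targets other than Mdm2, Trp53inp1, which encodes a nuclear cofactor of p53 in arrest and cell death, was the highest in FGO controls at 17.3 and 19.0 FPKM. Btg2 measured 5.92 and 5.02 FPKM and Bax 4.89 and 3.50 FPKM in the same libraries. Ccng1 was near 1 FPKM, Cdkn1a below 0.5 FPKM, and Bbc3 and Phlda3 (a repressor of Akt signalling) were listed at 0 in both.

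**Figure D1:**
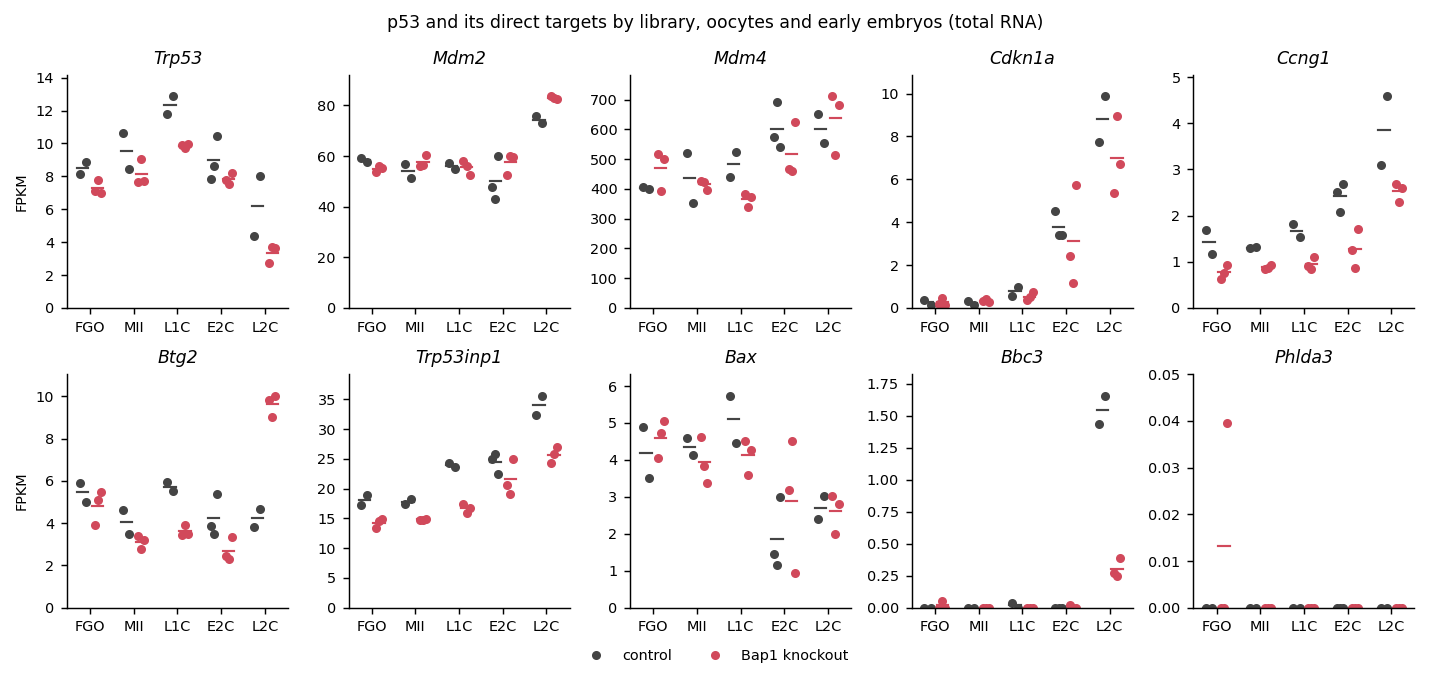
FPKM of the 10 genes (y axes, linear, own scale for each gene) in every total RNA library at the 5 early stages (x axes); points are libraries, horizontal bars group means, grey control, red Bap1 knockout. Btg2 is high and Bbc3 low in the 3 knockout L2C libraries (9.03 to 10.04 and 0.245 to 0.390 FPKM), Ccng1 lies lower in knockout at every stage, and Cdkn1a climbs from L1C to L2C in both genotypes.

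In control embryos the arrest gene Cdkn1a rose at both steps from L1C to L2C, the time when the embryonic genome comes into use. It measured 0.549 and 0.995 FPKM in L1C, 4.51, 3.41 and 3.41 FPKM in E2C, and 7.75 and 9.90 FPKM in L2C. No library of a stage overlapped the next. The log2 difference of FPKM + 1 was 1.43 ± 0.37 (SE, limma adjusted p = 0.00706) from L1C to E2C and 1.04 ± 0.38 (adjusted p = 0.0335) from E2C to L2C. The first call was lost without L1C control replicate 1 (1.25, adjusted p = 0.067) and the second without any control library but E2C replicate 1 (0.88 to 1.198, adjusted p 0.0706 to 0.172), and on centring libraries on their medians or scaling to TPM (adjusted p = 0.0851 and 0.0776), at a pseudocount of 0.1 (0.0574) and with no filter on low values (0.108). An unnamed antisense model, AC167363.2, overlaps Cdkn1a and shares 6.34% of its exonic words, and whether counting used the strand is not given in the sources used here.

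Bbc3, the BH3-only activator of apoptosis, stayed near 0 until L2C. It was listed at 0 in 18 of the 21 libraries that preceded L2C and reached at most 0.0521 FPKM in the others. Control L2C embryos measured 1.43 and 1.66 FPKM, a log2 difference of FPKM + 1 of 1.35 from E2C. No p is given for Bbc3 in any comparison of total RNA libraries. It reached the floor for testing there (1 FPKM in 2 libraries) only through these 2 controls, the group in which it was high. Both L2C controls lie above every earlier library.

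The feedback genes and Trp53 moved less. Mdm2 measured 47.7, 43.1 and 60.1 FPKM in control E2C and 75.7 and 73.0 FPKM in control L2C, 0.57 ± 0.13 higher (adjusted p = 0.00302) with no overlap. Trp53 measured 11.8 and 12.9 FPKM in control L1C and 7.82, 8.65 and 10.4 FPKM in control E2C. It was 0.43 ± 0.14 lower in E2C (adjusted p = 0.0221), while the median over all genes fell by 0.17, and the call was lost on centring the libraries on their medians (-0.20, adjusted p = 0.262) and without any library but E2C control replicate 3 (adjusted p 0.0502 to 0.153). Trp53inp1 rose from 17.4 and 18.3 FPKM in MII to 24.3 and 23.7 FPKM in L1C, by 0.41 ± 0.11 (adjusted p = 0.0155), and by 0.46 ± 0.14 (adjusted p = 0.0122) from E2C to L2C, where controls measured 32.3 and 35.7 FPKM. The first of these calls was lost without any of its 4 libraries (adjusted p 0.067 to 0.12), and the second without L2C control replicate 2 (0.39, adjusted p = 0.0992), on median centring (0.23, adjusted p = 0.187) and on the TPM scale (0.29, adjusted p = 0.109). Bax fell by 1.14 ± 0.38 on the log2 scale from L1C to E2C (adjusted p = 0.0273), from 5.74 and 4.46 FPKM to 1.45, 1.14 and 3.0 FPKM, and the call was lost without any library but E2C control replicate 3 (adjusted p 0.0688 to 0.156) and on median centring (0.0627). Without that library 5 genes of the set passed between these stages in place of 3, none passed without L1C control replicate 1, and 1 passed without any of the other 3. From FGO to MII no gene of the set passed at all, at adjusted p of 0.70 or more. Of all genes, 0.178% were called higher and 1.21% lower from FGO to MII (1.38% in all), and 3.19% higher and 7.73% lower from MII to L1C (10.9%), against 0 and 1 of the 9 genes followed here. From L1C to E2C 17.6% were higher and 31.3% lower (48.8%), against 1 and 2 of 8, and from E2C to L2C 30.7% were higher and 23.9% lower (54.6%), against 3 and 0 of the 8 genes other than Bbc3.

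In oocytes, eggs and 1-cell embryos no gene of the set was called higher in knockout. The 9 genes that could be tested at these stages, all but Phlda3, passed a floor of 1 FPKM in 2 of the 26 libraries, and Bbc3 passed it only through the 2 L2C controls. None was called in FGO, where 0.83% of all genes were called higher and 5.12% lower (5.95% in all), and none in MII, where 1.28% were higher and 4.62% lower (5.89% in all). Of the 9, 2 in FGO and 1 in MII had an unadjusted p under 0.05. In L1C 2 were called, both lower, against 5.51% of all genes called lower and 2.23% called higher (7.74% in all). All knockout libraries lay below all controls for 4 of the 9 genes in FGO, 3 in MII and 5 in L1C, as they did for 24.1%, 21.8% and 20.9% of all genes, and above them for none, against 17.7%, 19.8% and 22.1%.

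Trp53inp1 was the clearest of these. It measured 17.3 and 19.0 FPKM in control and 13.3, 14.6 and 14.8 FPKM in knockout FGO, 17.4 and 18.3 against 14.8, 14.8 and 15.0 FPKM in MII, and 24.3 and 23.7 against 17.4, 16.0 and 16.8 FPKM in L1C. Every knockout library lay below every control of its stage. The log2 difference was -0.32 ± 0.10 in FGO (limma adjusted p = 0.0556), -0.25 ± 0.10 in MII (adjusted p = 0.187) and -0.50 ± 0.10 in L1C (adjusted p = 0.00195).

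Btg2 measured 5.95 and 5.50 FPKM in control and 3.43, 3.92 and 3.49 FPKM in knockout L1C, also without overlap. Its log2 difference of -0.54 ± 0.17 had an adjusted p of 0.0492, which rose to between 0.0721 and 0.289 when any of the 5 L1C libraries was left out.

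Ccng1, whose product recruits the phosphatase PP2A to Mdm2, was lower in every knockout library than in the controls of its stage. Controls and knockouts measured 1.68 and 1.17 against 0.635, 0.759 and 0.931 FPKM in FGO, 1.30 and 1.32 against 0.834, 0.869 and 0.927 FPKM in MII, and 1.81 and 1.53 against 0.905, 0.841 and 1.11 FPKM in L1C. In E2C they measured 2.50, 2.09 and 2.69 against 1.26, 0.861 and 1.71 FPKM, and in L2C 3.10 and 4.6 against 2.68, 2.30 and 2.61 FPKM. The groups did not overlap at any of the 5 stages, which was so, on the lower side, for 2.86% of 15168 genes. Stage by stage the log2 difference was between -0.30 and -0.60, and it was called only in L2C (-0.44 ± 0.17, adjusted p = 0.0364). That call was lost without control replicate 2 or knockout replicates 2 or 3 of L2C, with a pseudocount of 0.1, on median centring, on the TPM scale and in a fit of L2C alone (adjusted p 0.0558 to 0.432).

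The mean of the 5 knockout effects was therefore taken in the fit of all 26 libraries, a comparison added after these values were seen. What passed in it is a description, and this fit lends E2C the narrower spread of other stages. Ccng1 had a mean log2 difference of -0.45 ± 0.07, Trp53inp1 of -0.33 ± 0.04 and Trp53 of -0.31 ± 0.07. Without the L2C libraries these means were -0.45, -0.31 and -0.22. Of all 15184 genes, 20.3% passed lower and 18.4% higher (38.8% in all), against 3 and 0 of the 8 genes other than Bbc3. Cdkn1a (-0.15 ± 0.13), Bax (0.01 ± 0.13), Mdm4 (-0.08 ± 0.07), Btg2 (-0.10 ± 0.07) and Mdm2 (0.07 ± 0.04) did not pass. Mdm2 passed higher when libraries were centred on their medians (0.14) or scaled to TPM (0.13), and without E2C control replicate 3.

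**Figure D2:**
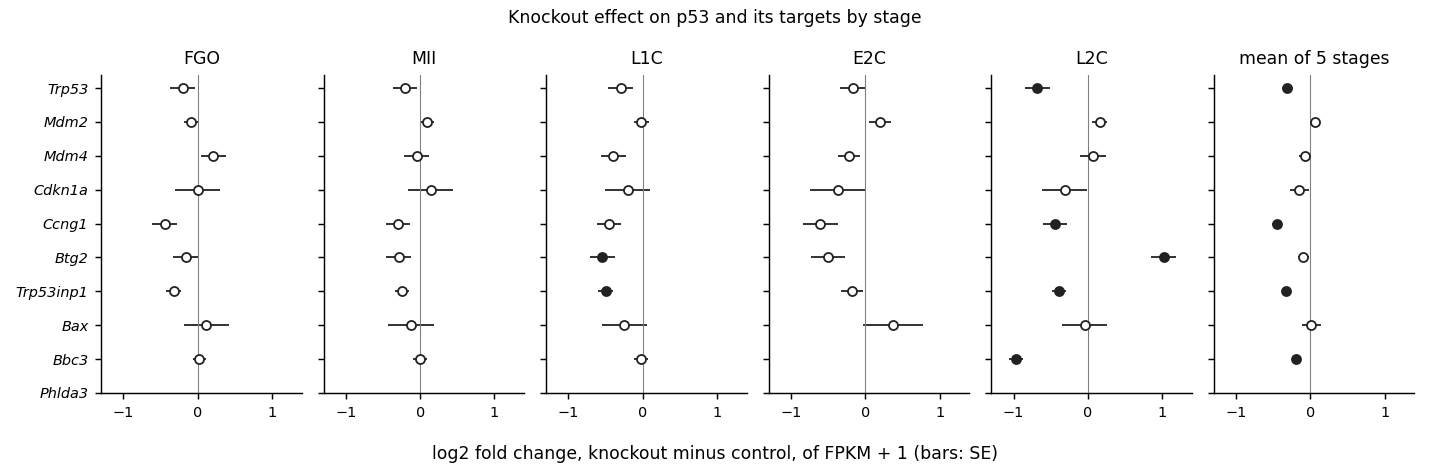
Knockout minus control difference of log2(FPKM + 1) (x axis) for each gene (y axis) at the 5 stages and averaged over them; bars are SE, filled points have a limma adjusted p under 0.05, and E2C was fitted on its own 6 libraries. No point is filled in FGO, MII or E2C, 2 are in L1C and 5 in L2C (4 without Bbc3), of which Btg2 alone lies to the right. The filled points of Bbc3 are a description, since it reached the floor only through the L2C controls. Those of the averaged effect are also a description, since that comparison was added after the values were seen. Genes without a point did not reach the floor.

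In early 2-cell embryos no member was called (0 of 8), against 10.1% of 11780 genes (4.25% higher, 5.87% lower), and 1 had an unadjusted p under 0.05. Knockout libraries disagreed among themselves. Cdkn1a measured 2.43, 1.17 and 5.74 FPKM in knockout replicates 1 to 3, and Bax 3.20, 4.51 and 0.953 FPKM. Replicate 3 was the highest of the 3 for Cdkn1a and the lowest for Bax. For 2 of the 8, Ccng1 and Btg2, all knockouts lay below all controls, as for 16.3% of genes, and for none above, against 17.6%. The log2 difference of Cdkn1a was -0.37 ± 0.38 and that of Bax 0.37 ± 0.40. With both libraries numbered 3 left out, an alternative chosen after seeing the data, the count stayed at 0. Fitted with all 26 libraries, which lends E2C the narrower spread of other stages, Ccng1 (adjusted p = 0.00407) and Btg2 (adjusted p = 0.015) were called lower. The 7 markers of 2-cell genome activation that were found summed to 241 to 311 FPKM in control and 86.1 to 195 FPKM in knockout E2C libraries. Their part in these values was not tested.

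In late 2-cell embryos genes of the set were called in both directions, as genes were at large. Btg2 was higher in knockout, Trp53, Trp53inp1 and Ccng1 were lower, and Cdkn1a, Bax, Mdm2 and Mdm4 were not called. This is 1 of 8 higher and 3 of 8 lower, where 21.3% and 20.9% of all genes were called (42.3% in all), and the median log2 difference of the 8 was -0.18 against 0.03 over all genes. Without overlap between genotypes, 2 of the 8 lay higher and 3 lower, as did 29.1% and 27.7% of all genes. Bbc3, left out of these counts, was also lower in every knockout library.

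Btg2 measured 3.82 and 4.69 FPKM in control and 9.80, 9.03 and 10.04 FPKM in knockout L2C. The 3 knockout libraries lay above every other total RNA library, which reached at most 5.95 FPKM. The log2 difference was 1.02 ± 0.17 (adjusted p = 4.85e-05), between 0.90 and 1.14 on leaving out any library of the stage. In E2C the difference had been -0.50 ± 0.23 (3.85, 3.48 and 5.40 against 2.43, 2.29 and 3.35 FPKM), and the change of the knockout effect from E2C to L2C, tested as an interaction, was 1.52 ± 0.28 (adjusted p = 0.00382), where 8.81% of genes were called in that direction and 7.89% in the other. Between L1C and E2C no gene of the 8 differed in its knockout effect (adjusted p of 0.415 or more), nor had any an unadjusted p under 0.05, and 0.337% of all genes were called. Over the 4 stages before L2C the mean effect was -0.37 ± 0.08. This mean is a description, since L2C was left out after its opposite direction was seen, and over all 5 stages Btg2 did not pass.

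Bbc3 measured 1.43 and 1.66 FPKM in control and 0.269, 0.245 and 0.390 FPKM in knockout L2C. The groups did not overlap, and the mean of the knockouts was 0.195 of that of the controls. The log2 difference of FPKM + 1, which understates the change at such low levels, was -0.97, and the difference of this effect from that in E2C was -0.98 (-2.05 and -2.14 at a pseudocount of 0.1). These values are a description, since the controls of this comparison are what brought Bbc3 above the floor, and leaving out either of them takes it below.

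Trp53 measured 4.36 and 7.99 FPKM in control and 2.75, 3.68 and 3.64 FPKM in knockout L2C, a log2 difference of -0.68 ± 0.17 (adjusted p = 0.00225). Without control replicate 2, the higher of the pair, it was -0.31 (adjusted p = 0.164), and in a fit of L2C alone the adjusted p was 0.0679. Trp53inp1 measured 32.3 and 35.7 against 24.4, 25.8 and 27.0 FPKM, a difference of -0.39 ± 0.10 (adjusted p = 0.00301), which became -0.32 (adjusted p = 0.0534) without that control and -0.25 (adjusted p = 0.0691) on the TPM scale. The call of Ccng1 given above was also lost without it (-0.22, adjusted p = 0.432). Leaving out control replicate 2 thus cost much of the Trp53 and Ccng1 differences and less of the Trp53inp1 difference. A single control then remained, and all knockout libraries still lay below it for these 3 genes.

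The genes that were not called in L2C include the targets most used as a sign of p53 activity. Cdkn1a measured 7.75 and 9.90 FPKM in control and 5.37, 8.97 and 6.71 FPKM in knockout, a difference of -0.31 ± 0.30 with overlapping groups. Bax measured 2.40 and 3.02 against 3.03, 2.00 and 2.81 FPKM (-0.04 ± 0.30). Mdm2 was 75.7 and 73.0 FPKM in control and 83.8, 82.9 and 82.4 FPKM in knockout, without overlap, a difference of 0.16 ± 0.10 that was not called (adjusted p = 0.217) but passed on the TPM scale (0.30, adjusted p = 0.0192), on which the median of all genes lay at 0.16. Mdm4 was 650 and 555 against 713, 515 and 682 FPKM (0.07 ± 0.17). With SEs of 0.30, moderate changes of Cdkn1a and Bax in either direction were not detectable in these libraries.

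Markers of developmental state moved at the same stage. The 7 genome activation markers summed to 138 to 159 FPKM in control and 313 to 436 FPKM in knockout L2C, and the 10 oocyte markers to 487 to 515 FPKM in control and 799 to 930 FPKM in knockout. Their part in the results of L2C was not tested.

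Further p53 targets, 53 genes listed apart from the set, of which 38 could be tested (29 in E2C), were compared at the same stages. Counts called higher and lower were 0 and 2 in FGO, 0 and 1 in MII, 0 and 3 in L1C, 0 and 0 in E2C, and 5 and 11 in L2C. Over all genes 0.83%, 1.28%, 2.23% and 4.25% were called higher and 5.12%, 4.62%, 5.51% and 5.87% lower at the first 4 stages, and in L2C 21.3% were called higher and 20.9% lower. Their median log2 difference was between -0.05 and 0.10 at the first 4 stages and -0.20 in L2C, against 0.00 to 0.03 over all genes. Ccng2, an arrest-associated cyclin, fell in FGO by 0.65 ± 0.15 on the log2 scale (adjusted p = 0.00682) and in MII by 0.56 ± 0.15 (adjusted p = 0.0223). The first was lost without FGO control replicate 2 (adjusted p = 0.119) and the second without any MII library but knockout replicate 3 (adjusted p 0.0553 to 0.257). Ppm1d, the phosphatase that switches p53 signalling off, fell in L1C by 0.65 ± 0.17 (adjusted p = 0.0184), a call lost without either control (adjusted p = 0.129 and 0.133) or without knockout replicate 2 (0.073).

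In L2C, where 21.3% of all genes were called higher and 20.9% lower, 2 arrest and feedback targets were higher and 3 lower of 11 tested. Psrc1, a spindle-associated target, was at 5.03 ± 0.443 FPKM in the controls (SD, n = 2) and 9.62 ± 1.17 in the knockouts (SD, n = 3), while Sesn2, a sestrin that restrains mTORC1, measured 60.8 ± 5.91 and 25.7 ± 2.42 FPKM. Of 11 apoptosis targets 1 was higher and 4 lower, led by Apaf1, the scaffold of the apoptosome, at 6.97 ± 0.616 FPKM in control and 1.86 ± 0.494 FPKM in knockout (log2 difference -1.49 ± 0.15, adjusted p = 7.93e-08). Of 16 repair and metabolism targets 2 were higher and 4 lower. Among these Ddb2, a sensor of ultraviolet lesions, was called higher (0.85 ± 0.23, adjusted p = 0.00509), but its controls measured 3.48 ± 2.74 FPKM and the call was lost without control replicate 2 (0.19, adjusted p = 0.435).

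Of 19 activators and cofactors of p53, 3 were higher and 9 lower in L2C, against 21.3% and 20.9% of all genes. The checkpoint kinases moved apart: Chek1 measured 23.6 ± 0.451 FPKM in control and 36.3 ± 2.56 FPKM in knockout, and Chek2 28.2 ± 0.660 and 10.4 ± 0.925 FPKM (adjusted p = 2.15e-06 and 0.000143). Of 15 restraints 5 were higher and 2 lower, with Trim24, a ubiquitin ligase for p53, at 24.7 ± 1.32 and 42.0 ± 1.07 FPKM (adjusted p = 5.70e-08) and Ppp1r13l (iASPP) at 3.53 ± 0.388 and 1.22 ± 0.170 FPKM (adjusted p = 0.000816). Trp63, the family member that guards the resting oocyte, measured 4.62 ± 0.704 and 7.37 ± 1.93 FPKM (adjusted p = 0.00607, and 0.0974 without control replicate 2). At the earlier stages no restraint was called and the activators held 0 to 2 calls. Trp53bp1, which binds p53 and marks DNA breaks, was higher in E2C at 31.7 ± 7.86 in control and 68.4 ± 17.1 FPKM in knockout (adjusted p = 0.0208, and 0.0548 or 0.0536 without control replicate 1 or 2).

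**Figure D3:**
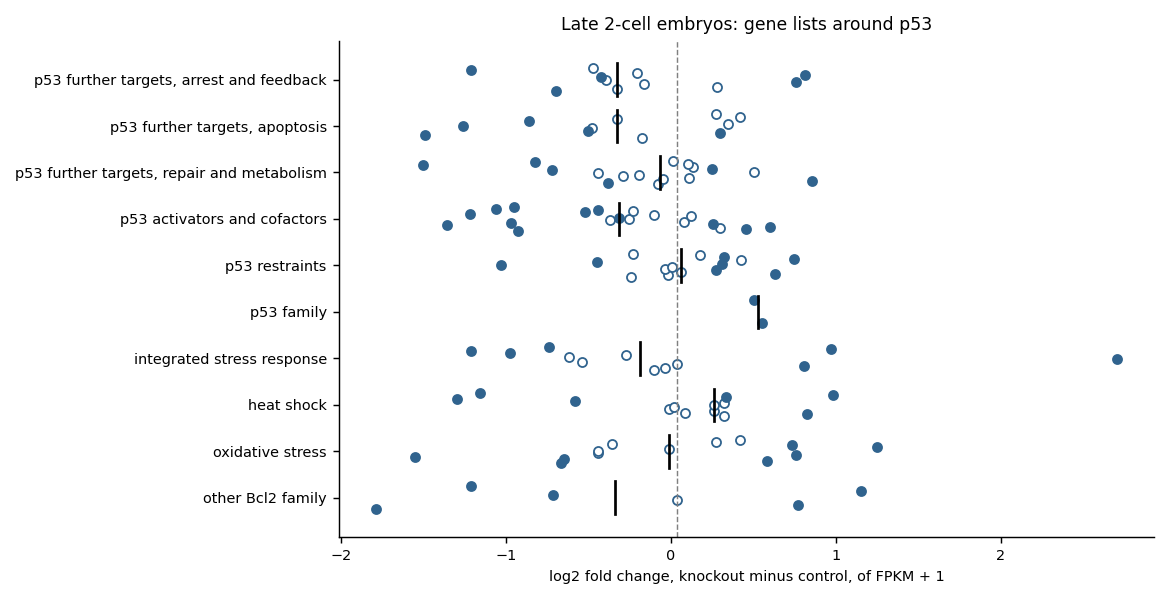
Knockout minus control difference of log2(FPKM + 1) in L2C (x axis) for the tested genes of 10 lists (y axis); each point is a gene, filled at a limma adjusted p under 0.05, black bars are list medians and the dashed line is the median of all genes (0.03). Filled points stand on both sides of the line in every list but the p53 family, whose 2 genes both lie to the right, and the point farthest right is Ddit3.

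Other stress programmes were compared in the same way. Of 13 heat shock genes tested, 2 were higher and 1 lower in FGO, 0 and 1 in MII, 1 and 0 in L1C, none in E2C, and 3 and 3 in L2C. The inducible chaperone Hspa1a measured 1.18 ± 0.413 FPKM in control and 4.05 ± 1.36 FPKM in knockout FGO (adjusted p = 0.00706, and 0.16 without control replicate 2), and the constitutive Hspa8 77.7 ± 4.97 and 122.9 ± 3.76 FPKM in L1C (adjusted p = 0.000477). The cochaperone Hsph1 was lower in FGO, at 62.0 ± 1.52 and 42.7 ± 1.65 FPKM (adjusted p = 0.00913, lost without either control, at 0.0677 and 0.113, and on median centring, at 0.0507), and in MII, at 54.9 ± 4.12 and 34.5 ± 2.15 FPKM (adjusted p = 0.00139, and 0.0527 without control replicate 2). Of 12 integrated stress response genes 1 was higher in MII, Atf4, at 87.1 ± 10.98 and 122.2 ± 12.1 FPKM (adjusted p = 0.00621, and 0.209 without control replicate 1), 2 were higher in E2C, and 3 were higher and 3 lower in L2C. Ddit3, the CHOP transcription factor, measured 19.0 ± 5.92 FPKM in control and 40.3 ± 5.96 FPKM in knockout E2C (adjusted p = 0.0219, lost without control replicate 1 or knockout replicates 1 or 2, at 0.0581 to 0.0679). In L2C it measured 5.37 ± 2.54 and 38.8 ± 0.897 FPKM, a log2 difference of 2.704 ± 0.24 (adjusted p = 1.78e-08). A second overlapping model carries the same symbol, so its reads may be split. Of 13 oxidative stress genes 1 was higher in MII and in L1C, in both cases Gpx1, a peroxidase of hydrogen peroxide, at 1.57 ± 0.315 and 5.83 ± 1.24 FPKM in L1C (adjusted p = 0.000282). The MII call (adjusted p = 0.0407) was lost without any of its 5 libraries (0.0571 to 0.381). In E2C 0 of 11 were higher and 1 lower, Nfe2l2, the NRF2 transcription factor, at 6.45 ± 1.44 and 3.17 ± 0.401 FPKM (adjusted p = 0.0426, lost without any of the 6 libraries, at 0.0637 to 0.117). In L2C 4 of 13 were higher and 3 lower, led by Prdx1, a peroxiredoxin, at 16.3 ± 2.85 and 40.2 ± 7.49 FPKM, and Gpx4, the lipid peroxidase, at 33.5 ± 3.91 and 10.8 ± 1.96 FPKM. Over all genes 5.95%, 5.89%, 7.74%, 10.1% and 42.3% were called at the 5 stages in order, and these small counts are set beside those shares as a description.

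Genes with the most similar course to 4 of the set were found among 7014 genes by Pearson correlation of the 10 group means of log2(FPKM + 1), points that share libraries within a genotype and stage, as a description. For Trp53 they were Cdkn1b (r = 0.974), Dcaf7 (0.950) and Trio (0.949). For Cdkn1a they were Hexim1 (r = 0.994), Hist1h2an (0.992) and Rnf10 (0.992). For Mdm2 they were Cnnm2 (r = 0.963), Tcf3 (0.950) and Tnks2 (0.944), and for Ccng1 Arhgap29 (0.989), Scarna13 (0.987) and Akap11 (0.984).

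At embryonic day 6.5 the level of Trp53 was above those of Mdm2 and Mdm4 in every library. In the poly(A) table Trp53 ranged from 32.1 to 178 FPKM and Bax from 301 to 851 FPKM, while Mdm2 ranged from 11.1 to 27.0 FPKM and Mdm4 from 4.50 to 8.91 FPKM. The ratio of Mdm4 to Trp53 within a library lay between 0.0301 and 0.185, below 1 in all 11 libraries, where it had been at least 34.9 in all 26 total RNA libraries. Each ratio is taken within a library, and the gap between the tables also spans the changes of library type and of sire strain (B6 to PWK males). All 10 genes could be tested at this stage, including Phlda3, which lay between 2.26 and 32.9 FPKM.

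**Figure D4:**
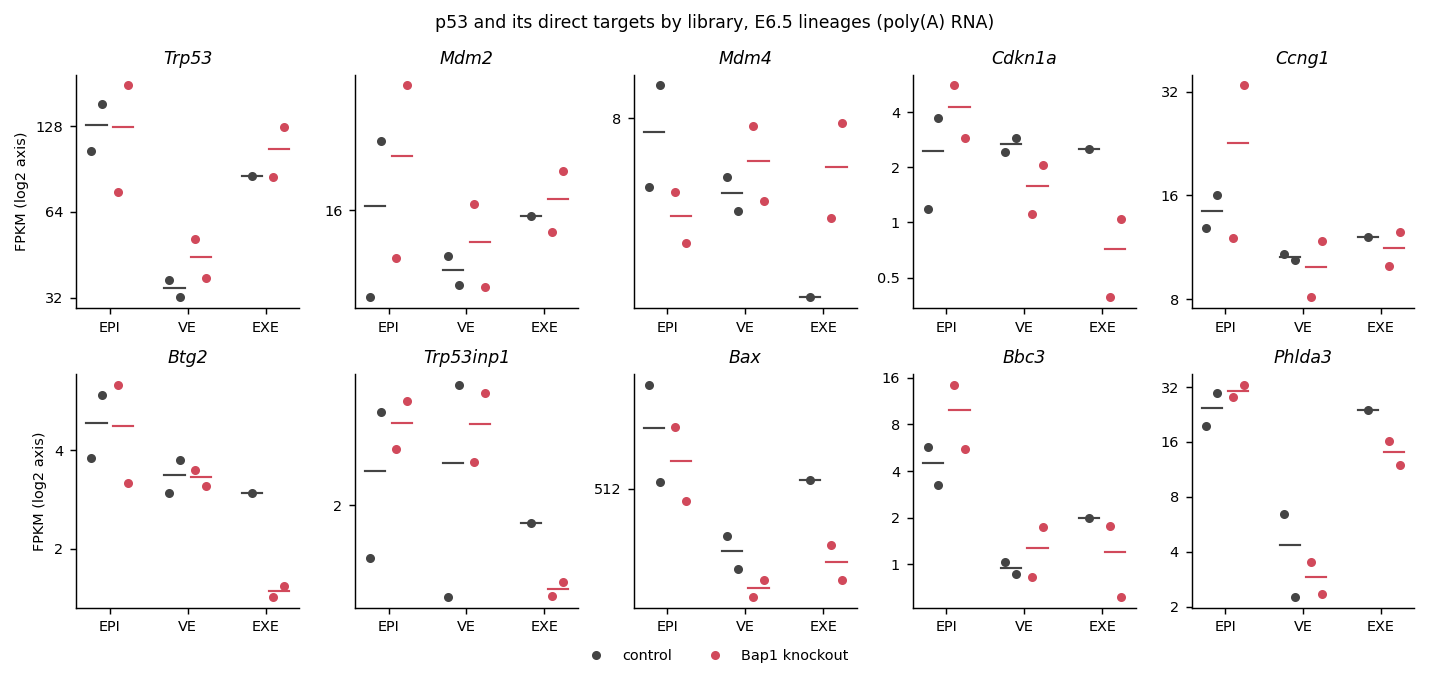
FPKM of the 10 genes (y axes, log2 scale, own range for each gene) in every poly(A) library of the 3 lineages at embryonic day 6.5 (x axes); points are libraries, horizontal bars group means, grey control, red maternal knockout. Trp53 and Phlda3 lie lower in VE than in EPI in every library, and in EXE both knockout libraries lie below the single control for 6 of the 10 genes.

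Several of the genes differed between lineages. Averaged over genotypes, 4 of the 10 genes were higher in EPI than in VE and none lower, where 20.3% and 16.4% of all genes were called and the median of all genes was 0.21. Phlda3 measured 19.7 and 29.7 FPKM in control and 28.2 and 32.9 FPKM in knockout EPI, and 6.46, 2.26, 3.51 and 2.33 FPKM in VE, a log2 difference of 2.69 ± 0.33 (adjusted p = 0.000305) without overlap. Trp53 measured 104 and 153 FPKM in control and 75.0 and 178 FPKM in knockout EPI, and 36.9, 32.1, 51.4 and 37.7 FPKM in VE (1.61 ± 0.32, adjusted p = 0.00398, and 0.0561 in knockout libraries alone). Here too every EPI library was above every VE library.

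Bbc3 was 1.81 ± 0.35 higher in EPI than in VE (adjusted p = 0.00364), with 5.75, 3.23, 14.4 and 5.51 FPKM against 1.04, 0.865, 0.824 and 1.73 FPKM. Bax was 0.85 ± 0.26 higher (adjusted p = 0.0287), a call lost without any library but the second replicate of either EPI group (adjusted p 0.0596 to 0.115). Against VE, EXE had higher Phlda3 (23.9, 16.3 and 11.9 FPKM, 2.14 ± 0.34, adjusted p = 0.00158) and Trp53 (85.5, 84.7 and 127 FPKM, 1.25 ± 0.34, adjusted p = 0.0253), 2 of 10 where 11.3% of genes were called higher. The Trp53 call was lost without EXE knockout replicate 2, VE knockout replicate 2 or either VE control (adjusted p 0.0563 to 0.0894). Against EPI, EXE had lower Bbc3 (1.99, 1.78 and 0.616 FPKM, -1.54 ± 0.39, adjusted p = 0.02), 1 of 10 where 10.4% of genes were called lower, lost without EXE knockout replicate 2 or EPI control replicate 1 (adjusted p = 0.0732 and 0.0623). Mdm2, Mdm4, Cdkn1a, Ccng1, Trp53inp1 and Btg2 were called in none of the 3 comparisons.

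Maternal knockout changed none of the 10 genes detectably in the lineages. No gene was called in EPI, VE or EXE, all at an adjusted p of 1 in limma, and none had an unadjusted p under 0.05. Over all genes 0.0% were called in EPI, 0.00748% in VE and 0.0% in EXE, with 306, 170 and 251 genes at an unadjusted p under 0.05. Both knockouts lay below both controls for 1 gene in EPI and 2 in VE, where 9.42% and 9.82% of genes did, and above them for 0 and 1, where 14.6% and 14.3% did. SEs were 0.36 to 0.49 in EPI and VE and 0.40 to 0.60 in EXE, so that changes of the size called in early embryos were not detectable. Bbc3 had the largest difference in EPI (0.90 ± 0.49), where knockout replicate 1 measured 14.4 FPKM and the other knockout 5.51 FPKM. Cdkn1a measured 1.18 and 3.69 FPKM in control and 5.61 and 2.87 FPKM in knockout EPI (0.66 ± 0.48), and 2.44 and 2.90 against 1.11 and 2.05 FPKM in VE (-0.53 ± 0.48). In EXE 6 of the 10 genes lay lower and 1 higher in both knockouts than in the only control, where 35.5% and 30.5% of all genes did. Cdkn1a there measured 2.51 FPKM in control and 0.390 and 1.04 FPKM in knockout (-1.06 ± 0.56), a comparison in which the single control was assumed to vary like the other groups. The difference of the knockout effect between VE and EPI was tested for all 10 genes and called for none (adjusted p of 1 each; 0.00748% of all genes called).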

How the data were processed

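RNA was sequenced from 37 libraries. Reads were trimmed with Trim Galore 0.6.6, aligned with STAR 2.7.9 to mm10 and quantified with StringTie 2.1.7, per the submitters' processing notes; the annotation and strand setting are not given in the sources used here. The deposited values are FPKM per gene in 2 tables; in the deposited column of EPI control replicate 1, recorded as another unit, 1 value slightly below 0 was set to 0. Low values were within 0.05 of whole reads for 12.49 to 17.51% of values per total RNA library and 15.39 to 28.86% per poly(A) library (10% without steps), so reads were not recovered and depth is unknown.

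Here log2(FPKM + 1) was fitted with limma 3.58.1 (R 4.3.3, trended empirical Bayes), keeping genes at 1 FPKM or more in at least 2 libraries of the fit; a call is a Benjamini-Hochberg adjusted p under 0.05 over all genes of a comparison. FGO, MII, L1C and L2C were fitted together with E2C in 26 libraries; E2C effects came from its own 6 libraries, changes between neighbouring stages that involve E2C from those stages' libraries, EPI and VE from their 8, and EXE from all 11 poly(A) libraries. The members and lists were chosen with earlier results of these data known. All members are named; of each list and knockout comparison, only the gene that rose most and the gene that fell most among those called with no overlap between genotypes may be named. The fits were also run on simulated data in which all genes had the same spread within a stage. That cannot show how the calls hold at the unequal spreads of real genes. Tables and figures were made with Python 3.11.15, pandas 2.3.3, numpy 2.4.6 and matplotlib 3.10.9. Alternatives were a pseudocount of 0.1, no filter, a mean of at least 5 FPKM, median centring, TPM scaling, no trend, other sets of libraries, a replicate block and each library left out.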

Additional observations from a re-analysis of the deposited data

Results flagged for a closer look

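For Btg2 the knockout effect differed between E2C and L2C by 1.52 on the log2 scale, by a test of the difference itself (limma interaction, adjusted p = 0.00382). All 3 knockout libraries of L2C lay above both controls, while in E2C all 3 lay below the 3 controls.

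For Bbc3 the same difference was -0.98. It is given as a description without a p, since Bbc3 reached the floor for testing only through the 2 L2C controls. It was listed at 0 in 5 of the 6 E2C libraries, so this value is the L2C difference almost unchanged.

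For Mdm4 the knockout effect was 0.50 in EXE, where both knockout libraries (5.81 and 7.89 FPKM) lay above the only control (4.50 FPKM), and -0.33 in EPI, where both (6.31 and 5.37 FPKM) lay below the controls (6.41 and 8.91 FPKM). The difference between the lineages was not tested, and neither effect was called.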

How the results depend on the processing

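Of 2902 values of single genes under the alternatives, 2731 kept their side of the threshold, 143 were no longer called and 28 became called. Among the 2731, 146 uncalled values changed sign, while no called value reversed. The L1C count of 2 was 1 with a pseudocount of 0.1, no filter, median centring, TPM scaling or a mean of at least 5 FPKM, 1 with any library left out, and 0 with the replicate block (Trp53inp1 adjusted p = 0.0611, Btg2 0.142). The E2C count of 0 was 2 in the fit of all total RNA libraries. Counts here include Bbc3, which reached the floor only through the L2C controls, and so are a description. Without Bbc3, 4 genes were called in L2C, 3 from E2C to L2C and 3 in the averaged effect. The L2C count of 5 was 4 with a pseudocount of 0.1, median centring or the replicate block (Ccng1 lost) and with TPM scaling (Ccng1 and Trp53inp1 lost, Mdm2 gained), 2 at a mean of at least 5 FPKM, which removes members from the test, 3 in the stage alone, and 1 to 5 with a library left out. Stage counts were 2 for 1 from MII to L1C with median centring (0 to 0 with a library left out), and 5 with TPM scaling or 6 without both libraries numbered 3 for 3 from L1C to E2C (0 to 5). From E2C to L2C they were 2 to 4 with a library left out. Between E2C and L2C 1 difference, that of Btg2, was called when Bbc3 was left out. With Bbc3 the count was 2, and 1 at a pseudocount of 0.1. Lineage counts were 2 for 4 between EPI and VE in knockouts alone (3 to 4), 0 without filter and 2 in knockouts alone for 1 between EXE and EPI (0 to 2), and 1 for 2 between EXE and VE without filter, with median centring or in knockouts alone (1 to 2). The averaged count of 4 was 5 with median centring or TPM scaling (Mdm2 gained), 2 at a mean of at least 5 FPKM (3 to 5). Leaving out the only EXE control could not be fitted.

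Replicate numbers carry no stated pairing: same-numbered deviations correlated at -0.09 to 0.17 in early stages, 0.61 in EPI and 0.46 in VE. With the replicate block Ccng1 in L2C had an adjusted p of 0.104. Scaling moved the calls over all genes, higher and lower, from 126 and 777 to 317 and 611 in FGO, from 194 and 701 to 519 and 552 in MII (median centring), from 501 and 692 to 747 and 559 in E2C and from 3238 and 3181 to 3989 and 2293 in L2C (TPM). With median centring they were 1454 and 831 from MII to L1C, 3322 and 2895 from L1C to E2C, and 3501 and 4579 from E2C to L2C, and for the averaged effect 4081 and 2267 (3584 and 2354 with TPM). Depth is unknown, and 2 to 3 libraries per group limit precision.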

Other observations

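The other Bcl2 family genes, which Bax and Bbc3 act with, held 1 call before L2C, in MII, where 5.89% of all genes were called: Bcl2l11 (BIM), a BH3-only activator, which in MII measured 7.45 ± 0.357 FPKM in the controls (SD, n = 2) and 4.09 ± 0.293 in the knockouts (SD, n = 3) (adjusted p = 0.0085, lost without either control, at 0.0617 and 0.125). In L2C 2 of 6 were higher and 3 lower, where 21.3% and 20.9% of all genes were. Bad, a BH3-only sensitiser, measured 3.81 ± 0.131 FPKM in control and 0.426 ± 0.354 FPKM in knockout (adjusted p = 2.81e-06). Bik measured 0.823 ± 1.02 and 2.73 ± 0.392 FPKM (adjusted p = 0.00214, and 0.151 without control replicate 1).

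The ratio of Mdm4 to Trp53 within a library was 69.4 and 149 in control L2C and between 140 and 259 in knockout L2C, so the groups overlapped. In the VE knockout libraries blood markers summed to 0.180 and 38.2 FPKM and decidua markers to 5.62 and 30.5 FPKM, where VE controls held at most 0.352 and 6.94 FPKM. Their part in the VE values was not tested.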
